A study of Mus musculus with 19 samples.

Results

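Ifit1, Ifit2, Ifit3, Ifit3b, Ifitm2 and Ifitm3 are 6 interferon-induced antiviral effector genes that were followed through brain transcriptomes of SCA17 knock-in (KI) mice and wild-type (WT) controls. They were taken by name: a row of the count table belonged to the set when the GENCODE M21 name of its Ensembl identifier was one of the 6. Each name matched 1 row, so the set held 6 of 41128 gene rows, and all 6 were among the 16841 genes that passed the filter on low counts. SCA17 is spinocerebellar ataxia type 17, a polyglutamine disease in which TBP, the factor that binds the TATA box, carries too long a run of glutamines. The KI mice were germline knock-ins of mutant TBP (Tbp-105Q), first obtained from heterozygous TBP floxed mice and EIIa-Cre mice, a line with Cre activity in the early embryo, and then bred with WT mice. Both genotypes were C57BL/6, 3 months old, and the labels name no treatment. RNA was taken from the cerebellum (CB), with 4 KI and 3 WT libraries, and, with 3 libraries per genotype and region, from striatum (STR) and from prefrontal cortex (PFC), giving 19 libraries. The tissue was bulk RNA, so that more cells of a type and more RNA per cell cannot be told apart, and p-values measure the spread between these libraries.

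IFIT and IFITM proteins are effectors of the interferon response. Interferon binds its receptors, JAK kinases activate STAT proteins, and these join IRF9 in the complex ISGF3, which binds interferon-stimulated response elements in promoters. IFIT proteins stay in the cytoplasm, bind foreign RNA and block its translation, whereas IFITM proteins sit in membranes and hinder the fusion of enveloped viruses with the cell. Interferon-induced genes are expressed at a low level in the healthy brain and can be induced in microglia, astrocytes, endothelial cells and neurons.

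The 4 IFIT genes lie within 99316 bases of chromosome 19 on the plus strand (GENCODE M21, GRCm38): Ifit2 at chr19:34550694-34576419, Ifit3 at chr19:34583531-34588731, Ifit3b at chr19:34607970-34613401 and Ifit1 at chr19:34640871-34650009. Ifitm2 (chr7:140954837-140955987) and Ifitm3 (chr7:141009586-141010770) lie on the minus strand of chromosome 7, with Ifitm1 between them. Their promoters were searched because the response element is the textbook control site of this gene class. The window ran from 250 bases before to 50 bases after each RefSeq start (GRCm38.p6), and the motif was GAAANNGAAA, searched on both strands, so that TTTCNNTTTC marks it on the other strand. Of 32851 such windows, 3.44% held the motif at least once and 0.225% held it at least 2 times. Ifit1, Ifit3, Ifit3b and Ifitm3 each held 2 matches, Ifitm2 held 1, and neither of the 2 windows of Ifit2 held these letters. The stretches around the matches are shown here 5′ to 3′ on the strand of the gene, with the motif in capitals; a match is a description of the letters and not a bound site.
Ifit1: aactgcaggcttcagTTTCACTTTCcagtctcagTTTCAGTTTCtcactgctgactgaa
Ifit3: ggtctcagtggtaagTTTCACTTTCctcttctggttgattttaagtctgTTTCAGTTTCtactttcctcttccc
Ifit3b: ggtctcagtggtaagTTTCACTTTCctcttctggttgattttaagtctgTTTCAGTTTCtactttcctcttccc
Ifitm2: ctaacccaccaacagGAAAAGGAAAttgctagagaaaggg
Ifitm3: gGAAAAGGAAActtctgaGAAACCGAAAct

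The Ifit1 stretch is chr19:34640770-34640828 on the plus strand and begins 119 bases before the start. The Ifit3 stretch (chr19:34583358-34583431) and the Ifit3b stretch (chr19:34607754-34607827), both on the plus strand, are identical, and the windows of these 2 paralogues share an unbroken identical run of 169 bases. The Ifitm2 stretch is chr7:140955983-140956022 on the minus strand, with its match 46 to 37 bases before the start. The Ifitm3 stretch is chr7:141010714-141010743 on the minus strand, and both of its matches lie after the start, in bases 3 to 12 and 20 to 29. The 2 matches of Ifit1 are also those of Ifit1bl2, a further IFIT gene that runs away from Ifit1 on the minus strand and shares the same bases. Sequence likeness also bears on the counts, since a read inside a shared stretch cannot be placed with certainty. Of the 50-base words of the transcript, 51.2% were shared with another gene for Ifit3 and 45% for Ifit3b, nearly all of them between the 2. For Ifitm2 the share was 48.5%, spread over Gm45717, with which it shares 268 exon bases, several other genes known only by Gm names and, for 3.3% of its words, Ifitm3. The share was 10% for Ifitm3, 7.13% for Ifit1 and 0 for Ifit2.

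Library totals ran from 10639110 to 17431284 counts with a median of 15082703, and the lowest member count in any library was 31 (Ifit1 in WT CB). The regions carried their own markers: Gabra6 and Pcp2 were highest in CB, Ppp1r1b and Drd1 in STR, and Tbr1 in PFC. A pair of cerebellar libraries stood apart in the markers of the choroid plexus, the tissue inside the ventricles that secretes cerebrospinal fluid. In CPM, the counts after every library is scaled to the same total, their summed level was 4755 CPM in KI CB replicate 3 and 1901 CPM in WT CB replicate 1, against 13.4 to 33.1 CPM in the other cerebellar libraries. The main cerebellar results are therefore also given without these 2 libraries. The striatal libraries of both genotypes ranged from 1510 to 8629 CPM for these markers.

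Ifit1, which recognises foreign ends of viral RNA and stops them from being translated, had the largest fitted fold of the 6 genes in CB and STR. Its level in CB was 5.78, 3.54 and 2.51 CPM in the 3 WT libraries and 32.3, 50.3, 39.0 and 22.3 CPM in the 4 KI libraries. In STR it was 4.67, 2.82 and 3.71 CPM in WT and 34.5, 33.7 and 68.1 CPM in KI. In PFC it was 5.48, 6.17 and 11.7 CPM in WT and 21.1, 24.6 and 31.7 CPM in KI. Every KI library lay above every WT library in all 3 regions, and KI STR replicate 3 held the highest level of all. The fitted fold was 9.02 in CB (95% interval 5.15 to 15.8), a log2 fold change of 3.17 ± 0.38 (SE) with an adjusted p of 2.57e-04. It was 12.1 in STR (6.73 to 21.8), or 3.60 ± 0.40 on the log2 scale, adjusted p = 1.98e-04. In PFC the fold was 3.31 (1.93 to 5.69), which missed the threshold with an adjusted p of 0.123. Adjusted p-values of fold changes come from edgeR (quasi-likelihood test, Benjamini-Hochberg over the 16841 genes), with a threshold of 0.05.

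**Figure D1:**
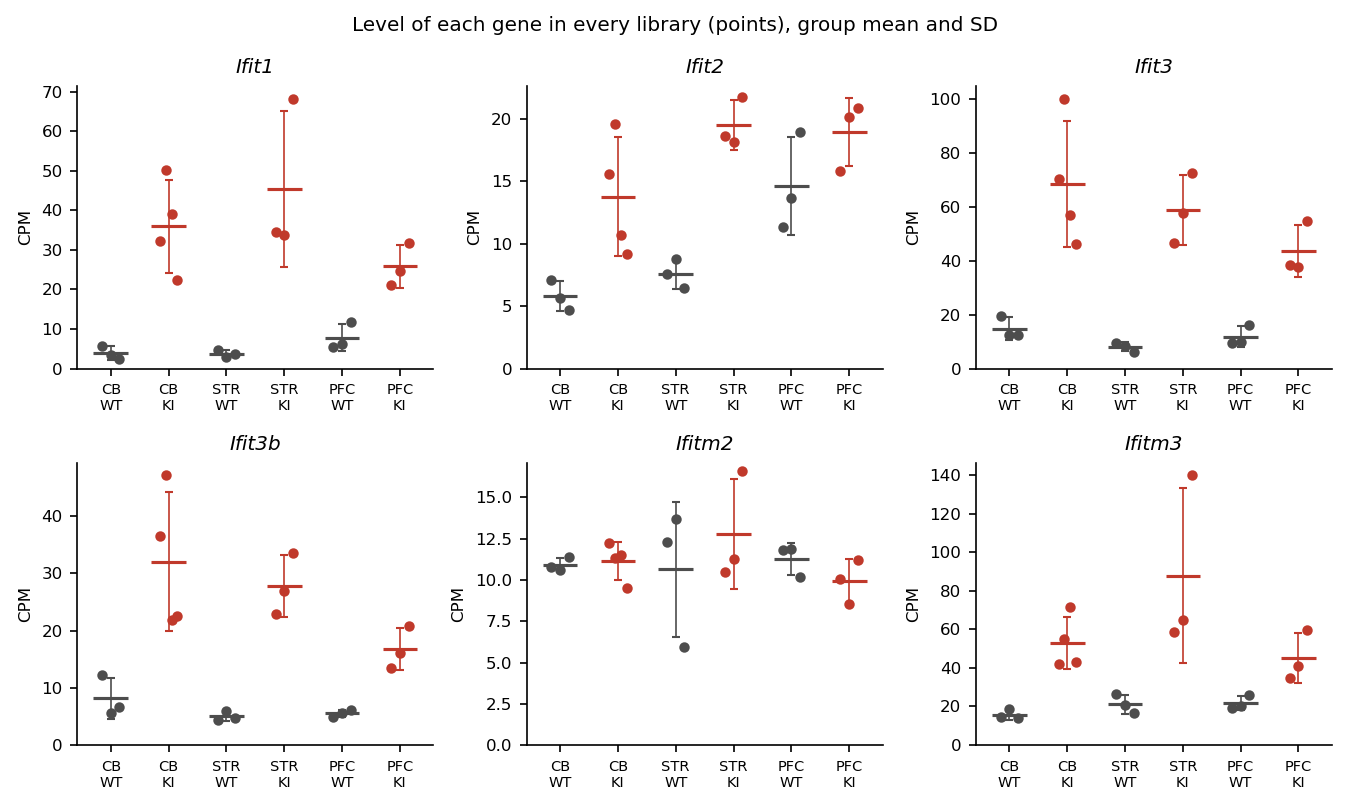
Level of each of the 6 genes in CPM (vertical axis, starting at 0) in all 19 libraries, by region (CB, STR, PFC) and genotype; points are libraries, the long bar is the group mean and the error bar its SD. Ifit1, Ifit3, Ifit3b and Ifitm3 have no KI point at or below a WT point of the same region, Ifit2 overlaps in PFC, and Ifitm2 overlaps in all 3 regions.

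Ifit2, an IFIT protein that binds double-stranded RNA and promotes cell death when overexpressed, moved less. Its CB level was 7.07, 5.63 and 4.69 CPM in WT and 15.6, 19.6, 10.6 and 9.13 CPM in KI. In STR it was 7.55, 8.77 and 6.41 CPM in WT against 18.6, 18.1 and 21.7 CPM in KI. In PFC the WT libraries already held 11.3, 13.6 and 18.9 CPM, and the KI libraries held 15.8, 20.2 and 20.8 CPM. The genotypes were apart in CB and STR and overlapped in PFC, where the highest WT library exceeded the lowest KI library. The fold was 2.36 (1.64 to 3.40) in CB, adjusted p = 0.0212, and 2.57 (1.76 to 3.76) in STR, adjusted p = 0.0209. Both calls were near the threshold: the CB call was lost without KI replicate 1 or 2 or WT replicate 2 or 3, and the STR call without KI replicate 1 or 3 or any 1 of the 3 WT replicates, with an adjusted p of up to 0.158 for CB and 0.121 for STR over the alternatives. In PFC the fold was 1.29 with an interval of 0.893 to 1.87, adjusted p = 0.917.

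Ifit3 and Ifit3b are close paralogues; IFIT3 proteins form complexes with other IFIT proteins. Ifit3 stood at 19.6, 12.3 and 12.3 CPM in WT CB and at 70.2, 100.1, 57.1 and 46.1 CPM in KI CB. In STR it stood at 9.62, 8.40 and 6.18 CPM in WT and at 46.4, 57.8 and 72.4 CPM in KI. In PFC it stood at 9.59, 9.70 and 16.3 CPM in WT and at 38.4, 37.6 and 54.7 CPM in KI. The genotypes did not overlap in any region, and Ifit3 was the 1 member that passed the test in all 3. Its fold was 4.63 (3.04 to 7.04) in CB, adjusted p = 4.18e-04, and 7.27 (4.61 to 11.5) in STR, adjusted p = 1.88e-04. In PFC its fold was 3.66 (2.36 to 5.66), adjusted p = 0.0158. That call was lost without KI PFC replicate 3 (adjusted p = 0.0849), WT PFC replicate 1 (0.0929) or WT PFC replicate 2 (0.121), and when PFC was fitted alone (0.201).

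Ifit3b passed the test in CB and STR, like its paralogue, but missed the threshold in PFC. It stood at 12.2, 5.57 and 6.63 CPM in WT CB and at 36.5, 47.2, 21.9 and 22.5 CPM in KI CB. It stood at 4.34, 5.87 and 4.79 CPM in WT STR and at 22.9, 26.9 and 33.6 CPM in KI STR. It stood at 4.86, 5.63 and 6.13 CPM in WT PFC and at 13.5, 16.1 and 20.8 CPM in KI PFC. No KI library fell to a WT level in any region. The fold was 3.92 (2.54 to 6.07) in CB, adjusted p = 0.00186, and 5.56 (3.46 to 8.91) in STR, adjusted p = 6.88e-04. In PFC it was 3.01 (1.89 to 4.80) with an adjusted p of 0.0796. As the 2 genes share many 50-base words, reads inside them may be missing from both counts or counted for the other gene.

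Ifitm3, a membrane protein of endosomes that restricts influenza and other enveloped viruses, stood at 14.5, 18.8 and 13.8 CPM in WT CB and at 42.2, 55.0, 71.6 and 43.3 CPM in KI CB. In STR it was 26.2, 20.96 and 16.5 CPM in WT and 58.6, 65.0 and 140.2 CPM in KI. In PFC it was 19.1, 20.02 and 25.9 CPM in WT and 34.5, 41.0 and 59.6 CPM in KI. The genotypes were apart in all 3 regions, and KI CB replicate 3 and KI STR replicate 3 were the highest of their groups. The fold was 3.37 in CB (log2 fold change 1.75, 95% interval 1.12 to 2.39), adjusted p = 0.00566, and 4.14 (2.62 to 6.54) in STR, adjusted p = 0.00350. The CB call was lost without WT CB replicate 3 (adjusted p = 0.0538). In PFC the fold was 2.07 (1.32 to 3.25), adjusted p = 0.512.

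Ifitm2, another family member on chromosome 7 with a like role at endosomal membranes, did not pass the test in any region. It stood at 10.8, 10.6 and 11.4 CPM in WT CB and at 12.2, 11.3, 11.5 and 9.49 CPM in KI CB. In STR the level was 12.3, 13.7 and 5.95 CPM in WT and 10.5, 11.3 and 16.6 CPM in KI. In PFC it was 11.8, 11.9 and 10.2 CPM in WT and 10.1, 8.54 and 11.2 CPM in KI. The genotypes overlapped in every region, and the lowest and highest of all values were both striatal. The fitted log2 fold change was 0.03 in CB (95% interval -0.44 to 0.49), 0.26 in STR (-0.23 to 0.76) and -0.19 in PFC (-0.69 to 0.31), with adjusted p of 0.989, 0.857 and 0.978. These intervals leave room for a change of up to 0.76 on the log2 scale in STR.

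In all, 5 of the 6 genes were called higher in CB, 5 in STR and 1 in PFC, and none was called lower. Over all tested genes, 0.517% were called higher in KI CB, 0.392% in KI STR and 0.0891% in KI PFC. In PFC Ifit1, Ifit3, Ifit3b and Ifitm3 had an unadjusted p under 0.05 by edgeR, as did 998 of the 16841 tested genes in either direction. With DESeq2 the counts of members were 5, 5 and 3, as Ifit1 (adjusted p = 0.00119) and Ifit3b (4.41e-04) were then also called in PFC. By levels alone, every KI library exceeded every WT library for 5 members in CB, 5 in STR and 4 in PFC, against 5.82%, 5.65% and 4.38% of all tested genes. Without the 2 cerebellar libraries high in choroid plexus markers, 4 members were called in CB: Ifit1 (log2 fold change 3.52), Ifit2 (1.51), Ifit3 (2.55) and Ifit3b (2.54). Ifitm3 then stood at 1.52 with an adjusted p of 0.0740. Ifit1, Ifit3 and Ifit3b are on the list of genes that the study itself called higher in all 3 regions of these mice, so their direction is not independent of that list.

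**Figure D2:**
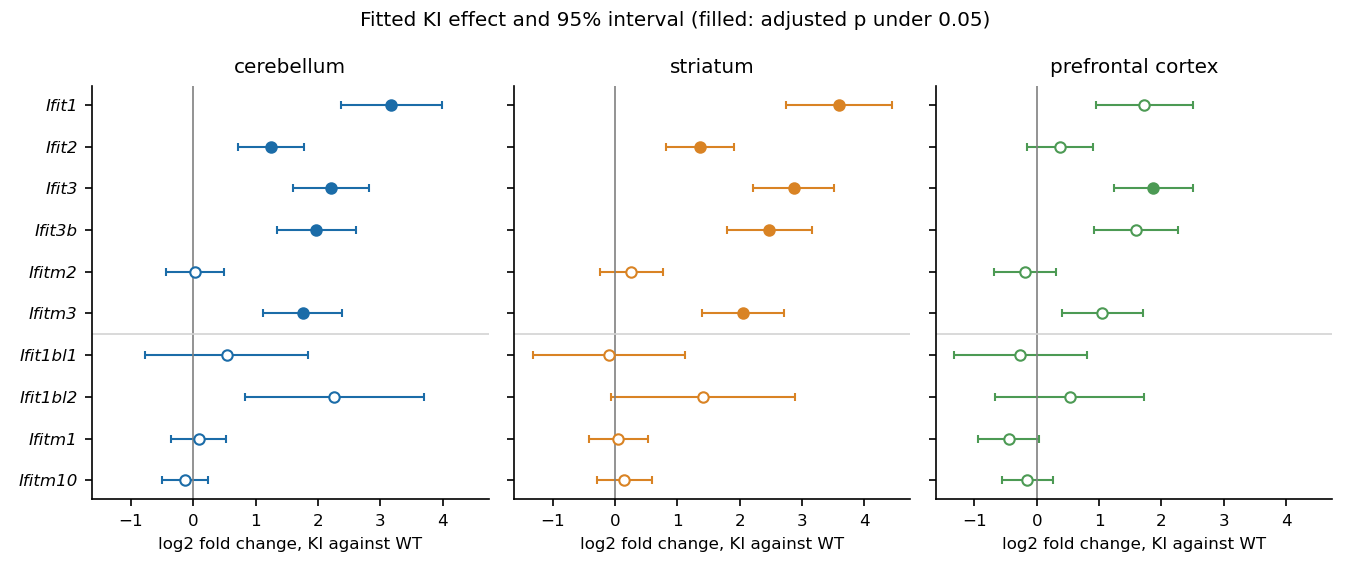
Fitted log2 fold change of KI against WT (horizontal axis) with its 95% interval, per region, for the 6 genes above the grey line and 4 other tested genes of the 2 families below it; filled points have an adjusted p under 0.05. The 6 genes are filled except Ifitm2 in CB and STR, and in PFC the 1 filled point is Ifit3 at 1.87.

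The size of the KI effect was then compared between regions, as the effects in PFC were the smallest for the 5 genes that rose in CB and STR. No member passed the adjusted threshold for a difference between any 2 regions; over all genes, 0.0119% did for CB against STR, 0.0178% for CB against PFC and 0% for STR against PFC. At an unadjusted p under 0.05, edgeR gave 0 members for CB against STR, 2 for CB against PFC and 4 for STR against PFC, against 6.69%, 6.12% and 4.41% of all genes, and DESeq2 gave 0, 2 and 5. The effect on Ifit1 was larger in STR than in PFC by 1.87 on the log2 scale (95% interval 0.75 to 2.99), with an unadjusted p of 0.00259 and an adjusted p of 0.967. It was larger in CB than in PFC by 1.45 (0.36 to 2.53), unadjusted p = 0.0119, adjusted p = 0.626. The effect on Ifit2 was larger by 0.99 (0.23 to 1.75) in STR and by 0.87 (0.13 to 1.61) in CB than in PFC. The effect on Ifit3 was larger by 0.99 (0.11 to 1.87) in STR than in PFC, and in CB and PFC it differed by 0.34, with an interval of -0.50 to 1.18. For Ifitm3 the effect in STR exceeded that in PFC by 1.00 (0.09 to 1.91). Striatal and prefrontal libraries of 1 number deviated together, so their numbers were also used as a replicate block within genotype: 5 members then had an unadjusted p under 0.05 for STR against PFC, Ifit1 with a difference of 1.77, and none passed after adjustment. The lowest adjusted p of edgeR in that fit was 0.943. With limma voom and a replicate block over all 19 libraries, 2 members (Ifit1 and Ifit2) had an unadjusted p under 0.05 for STR against PFC, and none passed. Without the 2 cerebellar libraries high in choroid plexus markers, 0 members had an unadjusted p under 0.05 by edgeR for CB against STR and 3 (Ifit1, Ifit2 and Ifit3b) for CB against PFC, and again none passed after adjustment.

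WT levels of some members differed between regions, as did 56.5% of all tested genes between CB and STR, 52% between CB and PFC and 30.5% between STR and PFC. WT PFC held more Ifit2 than WT CB, by 1.33 on the log2 scale (adjusted p = 4.40e-04), and more than WT STR, by 0.95 (adjusted p = 0.0104). WT PFC also exceeded WT CB in Ifit1, by 0.96 (adjusted p = 0.0496), and WT STR by 1.05 (adjusted p = 0.0550, or 0.0206 with the edgeR replicate block of STR and PFC alone and 0.234 with the limma voom replicate block over all libraries). Ifit3 was higher in WT CB than in WT STR by 0.87 (adjusted p = 0.0234). That call was lost without WT STR replicate 2 or 3 or without WT CB replicate 1, which was high in choroid plexus markers. The Ifit2 difference between STR and PFC was lost without WT PFC replicate 3, and the Ifit1 difference between CB and PFC, close to the threshold, without any of 12 libraries. In KI mice the order of the mean levels of Ifit1 was 45.4 ± 19.7 CPM in STR, 36.0 ± 11.7 CPM in CB and 25.8 ± 5.41 CPM in PFC (mean ± SD, n = 3, 4 and 3), with neighbours in this order overlapping. For Ifit3 the order was 68.4 ± 23.3 CPM in CB, 58.9 ± 13.0 CPM in STR and 43.5 ± 9.64 CPM in PFC, again with overlapping neighbours. Ifit2 in KI CB (13.7 ± 4.77 CPM) stood below Ifit2 in WT PFC (14.6 ± 3.91 CPM), with overlapping libraries. For Ifitm2 the 6 group means lay between 9.94 and 12.8 CPM, and each overlapped its neighbour in the order.

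Levels were set side by side per length of exon, as CPM divided by the exon length in kilobases (RPKM). Ifitm3 had the highest mean of the 6 in every group, from 23.2 RPKM in WT CB to 130 RPKM in KI STR. Ifitm2 was second in the 3 WT groups, at 16.2 to 17.3 RPKM, with Ifit3 next at 4.62 to 8.45 RPKM. In the 3 KI groups Ifit3 stood second, at 25.0 to 39.2 RPKM, ahead of Ifitm2. Ifit2 was the lowest of the 6 in all KI groups, at 3.50 to 4.96 RPKM, whereas Ifit1 in KI rose to 13.5 RPKM in CB, 17.1 RPKM in STR and 9.72 RPKM in PFC from 1.48, 1.41 and 2.93 RPKM.

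Ratios of 2 members within a library do not depend on library size or normalization, and were used to compare members of the same family. Counts of Ifitm3 were 1.42, 2.08 and 1.91 times those of Ifitm2 in WT CB, STR and PFC (geometric means) and 4.67, 6.48 and 4.44 times in KI. Reads in stretches that Ifitm2 shares with other genes may be missing from its counts, so the size of this ratio is uncertain. Counts of Ifit1, not corrected for length, were 0.650, 0.487 and 0.513 times those of Ifit2 in WT CB, STR and PFC and 2.63, 2.21 and 1.35 times in KI. Both of these ratios, and that of Ifit3 to Ifit2, were higher in every KI than in every WT library of each region. The exact two-sided permutation p was 0.0286 in CB for each of the 3 ratios, the smallest that 4 against 3 libraries allow, and 0.1 in STR and PFC, the smallest that 3 against 3 allow. Over the 12 ratio tests the adjusted permutation p of these 3 ratios was 0.114 in CB and 0.133 in STR and PFC. With so few libraries no ratio could have passed after adjustment, whatever its values. The adjusted test therefore cannot decide whether the ratios differ between genotypes. The ratio of Ifit3 to Ifit3b overlapped between genotypes in every region, being 1.87 in WT and 2.16 in KI CB, 1.60 and 2.11 in STR, and 2.08 and 2.60 in PFC, with exact permutation p of 0.286, 0.4 and 0.3. Without the 2 cerebellar libraries high in choroid plexus markers, the CB ratios were 1.47 in WT and 4.25 in KI for Ifitm3 to Ifitm2, 0.579 and 2.35 for Ifit1 to Ifit2, and 2.39 and 4.88 for Ifit3 to Ifit2, with no overlap, and 2.02 and 2.03 for Ifit3 to Ifit3b.

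**Figure D3:**
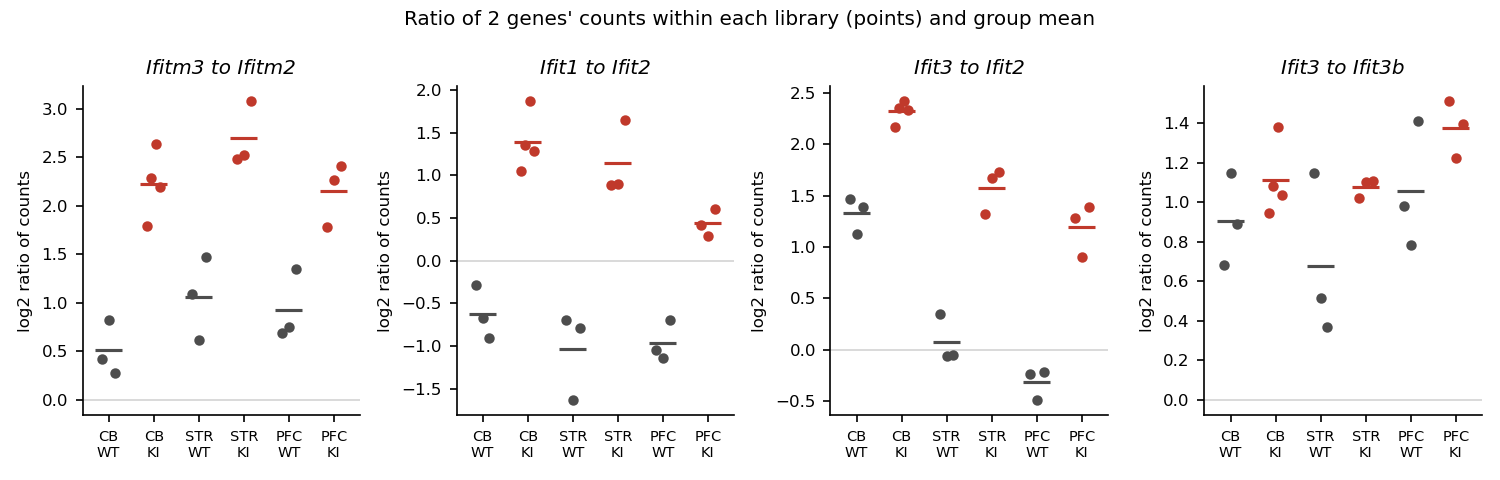
Log2 ratio of the counts of 2 genes within each library (vertical axis, no normalization involved) by region and genotype; points are libraries and bars are group means. Ifitm3 to Ifitm2, Ifit1 to Ifit2 and Ifit3 to Ifit2 are higher in all KI libraries than in the WT libraries of the same region, while Ifit3 to Ifit3b overlaps in each region.

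Across the 19 libraries, with levels (log2 CPM) centred within region, the IFIT genes rose and fell together. Pearson's r ran from 0.931 to 0.982 among the 4 IFIT genes, from 0.869 to 0.959 between them and Ifitm3, and from 0.206 to 0.347 between Ifitm2 and the other 5. These points share genotype, libraries and, for Ifit3 and Ifit3b, sequence, and the values are descriptions. With levels centred within region and genotype, r was 0.605 to 0.867 among the IFIT genes, 0.168 to 0.671 between them and Ifitm3, and 0.550 between Ifitm2 and Ifitm3. Likeness to other genes was taken with levels centred within region only, so these values also carry the difference between genotypes. By that measure the genes most like the IFIT mean were Irgm1 (0.978), an interferon-induced GTPase, Oasl2 (0.977), a member of the oligoadenylate synthetase family, and Irf7 (0.977), which drives interferon genes. Next came Usp18 (0.973), which removes ISG15 from proteins and dampens interferon signalling, and Irf9 (0.972). The IFITM mean was that of Ifitm3 and of Ifitm2, which did not pass the test in any region. The genes most like this mean were Bst2 (0.943), which tethers budding virus to the cell, Parp12 (0.919) and Trim30a (0.910). Next came Ifih1 (0.908), a sensor of double-stranded RNA, and Trim21 (0.907), an antibody receptor of the cytosol.

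None of the 4 other tested genes of both families passed the test of edgeR in any region, and DESeq2 called none; at an unadjusted p under 0.05 edgeR gave 1 in CB (Ifit1bl2) and 0 in STR and PFC. Ifit1bl2 had a log2 fold change of 2.26 ± 0.68 in CB (adjusted p = 0.173), resting on 1 to 8 counts per WT and 12 to 30 per KI library there. Ifit1bl1 had log2 fold changes of 0.53 in CB, -0.10 in STR and -0.27 in PFC. Ifitm1, which lies between Ifitm2 and Ifitm3 and acts at the cell surface, stood at 2.03 to 4.10 CPM over the 19 libraries, with log2 fold changes of 0.09, 0.06 and -0.45. Ifitm10 stood at 78.6 to 117 CPM in CB, with log2 fold changes of -0.13, 0.15 and -0.15. Ifitm5, Ifitm6 and Ifitm7 had at most 13 counts in a library and were not tested. The 3 nearest protein-coding genes outside the 2 families on each side of the 2 clusters were Fas, Ch25h and Lipa before and Slc16a12, Pank1 and Kif20b after the IFIT genes, and Cox8b, Nlrp6 and Pgghg before and Gm17387, B4galnt4 and Pkp3 after the IFITM genes. None of the 11 tested passed the test by edgeR in any region, where also 0 had an unadjusted p under 0.05, and Gm17387 had no count. Slc16a12, which begins 18394 bases beyond Ifit1, had log2 fold changes of 0.44, -0.34 and 0.43, and Lipa, which ends 23220 bases before Ifit2, had 0.04, 0.07 and 0.05. The value farthest from 0 was that of Pkp3 in STR, -1.70 ± 0.86 (adjusted p = 0.643), at no more than 0.386 CPM in any striatal library.

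**Figure D4:**
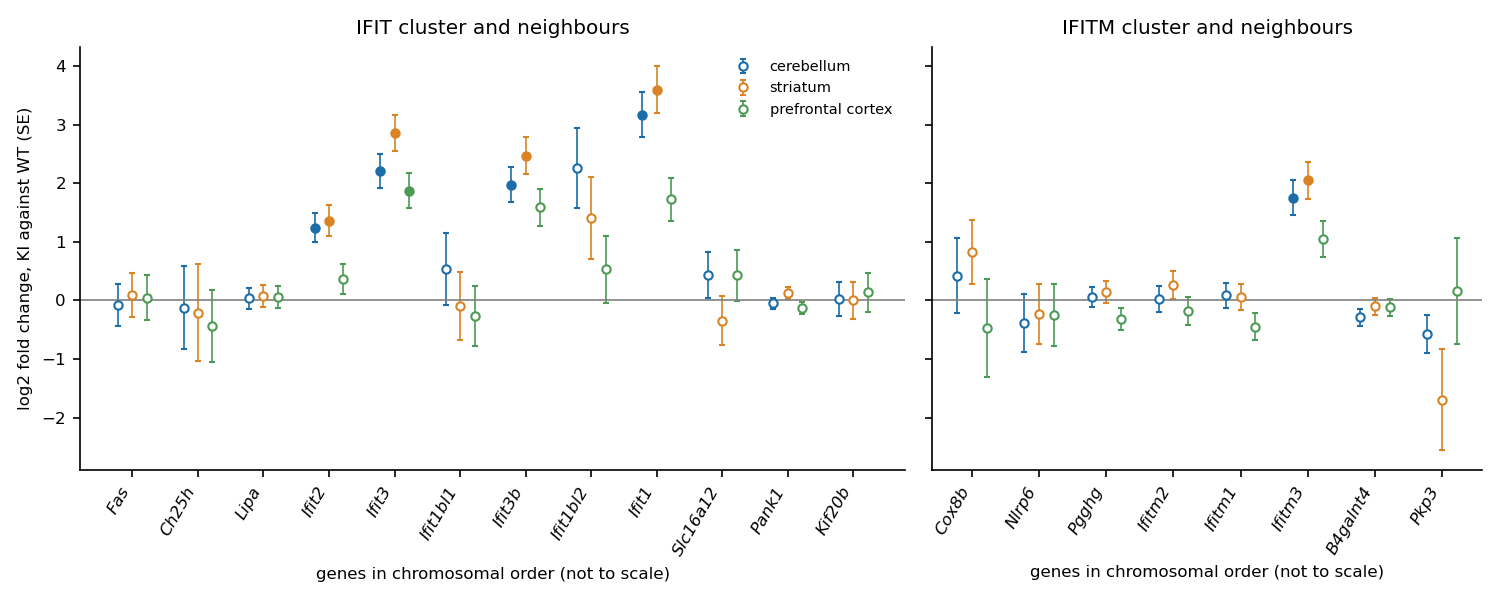
Log2 fold change of KI against WT with its SE (vertical axis) for the genes of the IFIT cluster and the IFITM cluster and their nearest protein-coding neighbours, in chromosomal order and not to scale; colours are regions and filled points have an adjusted p under 0.05. Filled points occur at Ifit2, Ifit3, Ifit3b, Ifit1 and Ifitm3, with values from 1.24 to 3.60, and at no neighbouring gene.

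The 6 genes sit at the end of a pathway whose other genes were listed by role. Of 92 such genes 67 were tested, and 30 were called higher in CB, 28 in STR and 11 in PFC, while none was called lower. The CB count was 23 without the 2 libraries high in choroid plexus markers. Over all tested genes the shares called higher were 0.517%, 0.392% and 0.0891%. In CB, STR and PFC, 61, 55 and 57 of the 67 had a positive log2 fold change, and DESeq2 called 37, 35 and 18 higher. The median log2 fold change over the tested genes of the lists was 1.17, 1.09 and 0.67, against 0.01, -0.01 and 0.00 over all genes. None of the 21 interferon ligand genes had enough counts to be tested: Ifnk alone had any, with at most 3 in a library and 8 over all libraries. None of the 5 tested receptor genes and none of the 3 JAK kinases passed, and by edgeR and at an unadjusted p under 0.05 the count was likewise 0, as it was by DESeq2. The receptor subunit Ifnar1 had log2 fold changes of 0.05, -0.07 and -0.23, Ifngr2 of 0.01, 0.10 and 0.07, Jak1 of 0.01, -0.11 and 0.05, and Jak2 of 0.15, -0.05 and 0.07.

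Among the transcription factors of ISGF3 and the IRF family, those that rose included Irf7, Irf8 and Irf9 in CB, Irf7, Irf9 and Stat2 in STR, and Irf7 and Irf9 in PFC. Irf9, the DNA-binding part of ISGF3, went from 9.57 ± 2.08 to 48.2 ± 4.96 CPM in CB, from 12.7 ± 2.00 to 51.8 ± 7.81 CPM in STR and from 12.0 ± 1.54 to 33.4 ± 6.34 CPM in PFC (mean ± SD, n = 3 or 4). Its log2 fold changes of 2.33, 2.03 and 1.47 all passed, and without the 2 libraries the CB value was 2.52 (adjusted p = 4.89e-05). Stat2 passed in STR (0.52, adjusted p = 0.0209), with values of -0.22 in CB and 0.42 in PFC. Of 11 tested sensors of RNA and DNA and their adaptors, Ddx58, Ifih1 and Tlr7 rose in CB, Ddx58, Dhx58 and Ifih1 in STR, and none in PFC by edgeR, where 5 had an unadjusted p under 0.05 and DESeq2 called 2. The adaptor kinase Tbk1 had log2 fold changes of 0.00, -0.17 and -0.04 and the adaptor Mavs of 0.15, 0.25 and 0.07. Of 6 negative regulators, Usp18 rose in each region (3.67, 3.49 and 2.33), while Pias1 (0.09, -0.14 and -0.12) and Ptpn11 (0.08, 0.18 and 0.02) did not pass. Of 33 other interferon-induced effectors, 22 rose in CB, 20 in STR and 7 in PFC. The 2 with the highest CPM were Ly6e, with log2 fold changes of 0.24, 0.34 and 0.26 that did not pass, and Ifi27, which rose in CB (2.33) and STR (1.67) and had 1.29 in PFC (adjusted p = 0.118).

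**Figure D5:**
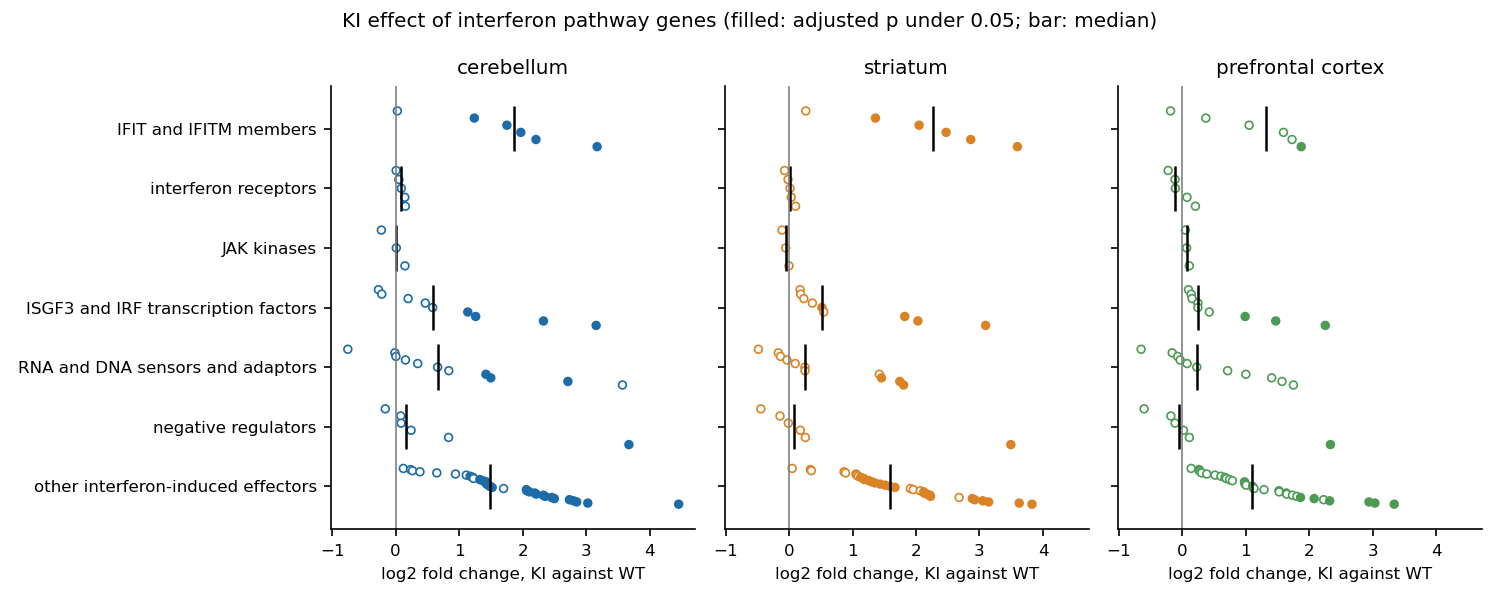
Log2 fold change of KI against WT (horizontal axis) for the 6 genes and the tested genes of each pathway list, per region; each point is a gene, filled where the adjusted p is under 0.05, and black bars are medians. Receptors and JAK kinases lie close to 0 with no filled point, while 22, 20 and 7 of the 33 other effectors are filled in CB, STR and PFC.

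Markers of other cell types were read beside these results. In CB, 7 of 10 microglia markers were called higher, against 0.517% of all tested genes. Among them were C1qa, C1qb, C1qc, Cx3cr1, Csf1r and Aif1 with log2 fold changes of 0.58 to 1.33. All 10 had a positive log2 fold change there, 9 had an unadjusted p under 0.05 by edgeR, and DESeq2 called 9. The summed level of the 10 was 235 to 319 CPM in KI and 158 to 163 CPM in WT CB libraries. In STR none of the 10 passed, and the sum was 737 to 845 CPM in KI and 720 to 836 CPM in WT. In PFC none passed, with 604 to 719 CPM in KI and 662 to 733 CPM in WT. By edgeR at an unadjusted p under 0.05, 2 of the 10 were found in STR and 1 in PFC, and DESeq2 called 0 in both. Without the 2 cerebellar libraries high in choroid plexus markers, 6 of the 10 were called higher in CB, among them C1qa, C1qb, C1qc, Csf1r and Tmem119. No microglia marker was at 0 in all libraries of a group, and the part of microglia in the members' levels was not tested in any region. Endothelial markers, of which 0 of 10 passed in any region, summed to 303 to 338 CPM in KI and 294 to 308 CPM in WT CB. By edgeR none of the 11 markers of pericytes, smooth muscle and vascular fibroblasts passed in any region. Among 9 cerebellar neuron markers Pcp2 of Purkinje cells fell in CB (-1.16). All but Gabra6 (0.05) had a negative log2 fold change there, with a median of -0.40, 4 had an unadjusted p under 0.05, and DESeq2 called 2. Their summed level was 6211 to 7473 CPM in KI and 8437 to 9197 CPM in WT CB, with no overlap. Among 8 astrocyte markers Aldoc fell in CB (-0.62), a call that was lost without the 2 libraries high in choroid plexus markers. Of these 8 markers, 6 had a positive log2 fold change in CB, with a median of 0.13. Their sum, in which abundant genes weigh most, was 5894 to 7354 CPM in KI and 7677 to 7898 CPM in WT CB. In PFC the astrocyte sum was 3639 to 4367 CPM in KI and 4524 to 5038 CPM in WT. Striatal neuron markers summed to 5568 to 7954 CPM in KI and 10305 to 11945 CPM in WT STR, also with no overlap. All of these 9 but Tac1 (0.05) had a negative log2 fold change there, with a median of -0.67. The part of these lower neuronal and astrocyte sums in the members' levels was not tested. By edgeR no marker of oligodendrocytes, blood cells, choroid plexus, striatal or cortical neurons passed in any region. At an unadjusted p under 0.05 each of these lists, like the endothelial and pericyte lists, gave 0 to 2 genes per region, and DESeq2 called 1 gene in 1 of them, lower in KI STR among the striatal neuron markers. The lowest p of edgeR there was that of Pde10a, a striatal phosphodiesterase, with a log2 fold change of -1.02 (adjusted p = 0.0542).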

How the data were processed

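The authors made libraries with SMART-Seq v4 and Nextera XT kits, which do not keep strand, and sequenced them on an Illumina HiSeq1000. The submitters' processing notes name bcl2fastq 2.17.1.14, STAR 2.5.2b, HTSeq, DESeq2 1.10.1 and the build GRCm38.p3, without roles. The authors deposited raw read counts per Ensembl gene, used here for every test, and a normalized signal table of the same counts divided by 1 size factor per library, used here for 1 alternative. All 19 columns matched sample titles. Of 41128 rows, 40254 had a GENCODE M21 entry.

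Counts were fitted with edgeR 4.0.16 (R 4.3.3): TMM scaling, filterByExpr, 6 group means, 13 residual degrees of freedom, quasi-likelihood test, Benjamini-Hochberg adjustment over 16841 genes. CPM are TMM-scaled, and RPKM divides them by the length of merged exons. Correlations and centred levels used log2 CPM with a prior count of 2. The fit was tested on simulated data. The genes named were the 6 members, the rest of both families, the 2 most abundant tested genes of each pathway list, any gene called where a count was 5 or fewer, the 3 nearest coding genes on each side of the clusters, and the 5 genes most like each family mean. Some list genes are not reported here. Members and lists were chosen with earlier results of these data known. Ratio tests, the 12-library block and the fit without 2 cerebellar libraries were added after the data were seen. No 2 libraries of a group agreed within sampling noise (chi-square per degree of freedom 4.95 or more).

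KI and WT libraries of 1 number did not deviate together (r -0.245 to 0.172), and neither did CB with other regions (-0.104 to 0.163). STR and PFC libraries of 1 number and genotype did (0.233 to 0.368, against at most -0.0758 for other numbers), a hint from the data that they share a mouse, so STR against PFC was also fitted with that block. Alternatives were DESeq2 1.42.0, limma 3.58.1 with voom, other scaling and filters, replicate blocks, a sex covariate (the ratio of Xist to 4 Y-linked genes), each region alone and leaving out each library.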

Additional observations from a re-analysis of the deposited data

Results flagged for a closer look

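The summed level of the choroid plexus and ependyma markers in the 4 KI CB libraries held 1 value far from the others: 4755 CPM in replicate 3 against 13.4 to 14.9 CPM, a gap of 0.99969 of the whole range, above Dixon's 95% critical value for 4 samples. It was the 1 group singled out among 35 tested, and chance alone singles out about 1 in 20. In that library Ifitm3 stood at 71.6 CPM, the highest of the 4, while Ifit1, Ifit2, Ifit3 and Ifit3b (39.0, 10.6, 57.1 and 21.9 CPM) were not. The part of choroid plexus RNA in the Ifitm3 level was not tested.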

How the results depend on the processing

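Of 522 recomputed member fold changes 520 kept their sign, the 2 exceptions being Ifitm2. Leaving out 1 library at a time gave 3 to 5 members called in CB, 4 to 5 in STR and 0 to 2 in PFC. It gave 3 in CB without WT CB replicate 3, 0 in PFC without KI PFC replicate 3, WT PFC replicate 1 or WT PFC replicate 2, and 2 in PFC without KI CB replicate 2 or WT CB replicate 1. Members whose KI effect differed between regions stayed at 0 to 0 for each pair of regions, and members whose WT level differed were 0 to 2 for CB against STR, 1 to 2 for CB against PFC and 0 to 2 for STR against PFC. The lowest of these came without WT CB replicate 1, WT STR replicate 2 or WT STR replicate 3 for CB against STR, and without WT PFC replicate 3 for STR against PFC. Pathway genes called were 20 to 32 in CB, 16 to 30 in STR and 3 to 13 in PFC, falling most without KI STR replicate 3, WT STR replicate 2 or WT STR replicate 3 and without KI PFC replicate 3, WT PFC replicate 1 or WT PFC replicate 2.

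In PFC, 3 members were called by DESeq2, without a filter beyond 1 count and with the sex covariate, 2 without the 2 cerebellar libraries high in choroid plexus markers, and 0 with each region fitted alone. Pathway genes in PFC were then 18 by DESeq2, 7 with at least 10 counts in every library and 0 with each region alone, which gave 15 in STR. With each region alone Ifit2 in CB (adjusted p = 0.0811) and Ifitm3 in STR (0.0743) were also lost. The WT difference between STR and PFC held for 2 members by DESeq2, without a filter and with the sex covariate, and the CB against STR call was 0 without the 2 cerebellar libraries. The cause of these changes was not tested, except that fewer libraries entered the last fits.

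The replicate block within regions left 5, 5 and 1 members called in CB, STR and PFC and 6 pathway genes in PFC. The replicate block across regions left 1 member with a WT difference between CB and PFC, and the voom replicate block of genotype and number left 1 there and 0 between CB and STR. The replicate block of STR and PFC alone gave 2 WT differences between them. The blocks changed no other call of a member count.

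With 3 or 4 libraries a group, changes inside the 95% interval printed with a fold change are not separable, as for Ifitm2 and for Ifit2 in PFC. Transcripts of Ifit3, Ifit3b and Ifitm2 include stretches shared with other genes, and how reads from these stretches were counted was not tested.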
